A study of Mus musculus with 2 samples.

Results

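The mitochondrial respiratory chain was examined in hippocampal RNA of mice given cerium chloride (CeCl3) and of control mice. Its genes were taken as all genes whose single symbol in the platform annotation begins with Nduf, Uqcr, Cox4, Cox5, Cox6, Cox7, Cox8 or Atp5, or is Sdha, Sdhb, Sdhc, Sdhd, Cycs or Cyc1. This gave 89 genes with 139 probes, of 19057 named genes with 34885 probes. Of the 89 genes, 79 encode subunits of complexes I to V or cytochrome c. The symbol rule also took in 8 assembly factors of complex I (Ndufaf1 to Ndufaf8), the supercomplex factor Cox7a2l and the pseudogene Ndufs5-ps, which are not subunits and are given apart.

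The respiratory chain sits in the inner mitochondrial membrane. Complexes I and II pass electrons from NADH and succinate to ubiquinone, complex III passes them on to cytochrome c, and complex IV to oxygen, while complexes I, III and IV pump protons. Complex V, the ATP synthase, uses the proton gradient to make ATP, on which neurons depend for ion pumping and synaptic transmission. Most subunits are encoded in the nucleus and all of the genes measured here are nuclear; no probe for any of the 13 subunits encoded by mitochondrial DNA is named here.

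Both samples are labelled as male ICR mice, an outbred stock, with a labelled age of 4 weeks; whether this is the age at the first dose is not stated. Treated mice received CeCl3 by gavage each day for 90 days and controls purified water. For the treated sample the labels list 3 doses (0.5, 1 and 2 mg/kg). Which of these, or which mixture, the array holds is unknown, as is the number of mice behind each array. The study divided 300 mice into 4 groups of 75 and set behaviour in learning tasks beside transcript levels in the hippocampus. Each group analysed here has 1 Illumina bead array. The differences have no replicate behind them, and none was given a p-value. The 95% bead interval printed with a difference covers bead-to-bead error within the arrays alone, and the number of arrays limits the precision. The arrays lay on different BeadChips, so chip and treatment cannot be told apart.

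The CeCl3 array detected 38.5% and the control array 36.3% of all 45281 probes, from a median of 42 and 44 beads. Of 14 neuronal markers 11 were detected, all on both arrays, with a median log2 difference of 0.21 (4 lower on the CeCl3 array) and summed intensities of 131777 (CeCl3) and 126703 (control); Snap25, Tubb3 and Nefl were not detected. Of 10 oligodendrocyte markers 8 were detected, with a median of -0.14 (6 lower) and summed intensities of 89199 and 99244; Ermn was not detected. The medians of the astrocyte, microglial, endothelial, choroid plexus and erythrocyte markers were -0.01, -0.05, -0.18, -0.02 and 0.05. The part of cell composition in the values below was not tested, and in bulk RNA fewer cells of a type and less RNA per cell cannot be told apart. Xist, which silences an X chromosome in female cells, was detected by all of its 4 probes in the control and by 0 with CeCl3, against the male label of that sample. Sex may therefore differ between the arrays and cannot be told apart from treatment in any difference below.

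The respiratory chain genes differed little between the arrays. Of the 89 genes, 77 were detected on at least 1 array and 73 on both. Non-detection refers to the probes and need not mean an absent transcript. Of the 3 probes of Cox5b, the brightest had intensities of 17973 (CeCl3) and 15880 (control), and another was not detected. Differences below are on the log2 scale of the normalized signal, CeCl3 minus control. The median over the 77 genes was -0.05, against -0.04 over the 10416 named genes detected, and 62.3% of the 77 lay below 0 against 55.8% of all. Among the 73 genes on both arrays the differences ran from -0.63 (Ndufb5) to 0.51 (Ndufb10), and 45 of them (61.6%) lay within 0.2 of 0, against 55.6% of all named genes on both arrays. None of the 73 differed by 2-fold or more, where the share among all named genes on both arrays was 0.982%.

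A bead interval that left out 0 was found in 21 of the 73 genes (28.8%), against 22.4% of all named genes on both arrays. Of these, 12 lay below 0 (background 13.9%) and 9 above 0 (background 8.53%). The median half-width of the bead interval was 0.24 in the 73 genes and 0.31 in all named genes. Among genes with a mean log2 signal of at least 12 the counts were 15 of 47 members (31.9%), against 21.5% of all such genes. Of the 47, 9 lay below 0 (background 13.8%) and 6 above 0 (background 7.74%). The counts on each side depended on the processing. Shares of all named genes under the other settings are not given, so the next counts have no background. Without quantile normalization 11 lay below 0 and 12 above, and with the mean of detected probes 9 and 10. In the authors' series matrix, taken without further normalization, the median of all named genes was 0.18, the bead interval lay below 0 in 7 members and above 0 in 16, and the members' median of 0.07 lay -0.11 from that of all genes.

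**Figure D1:**
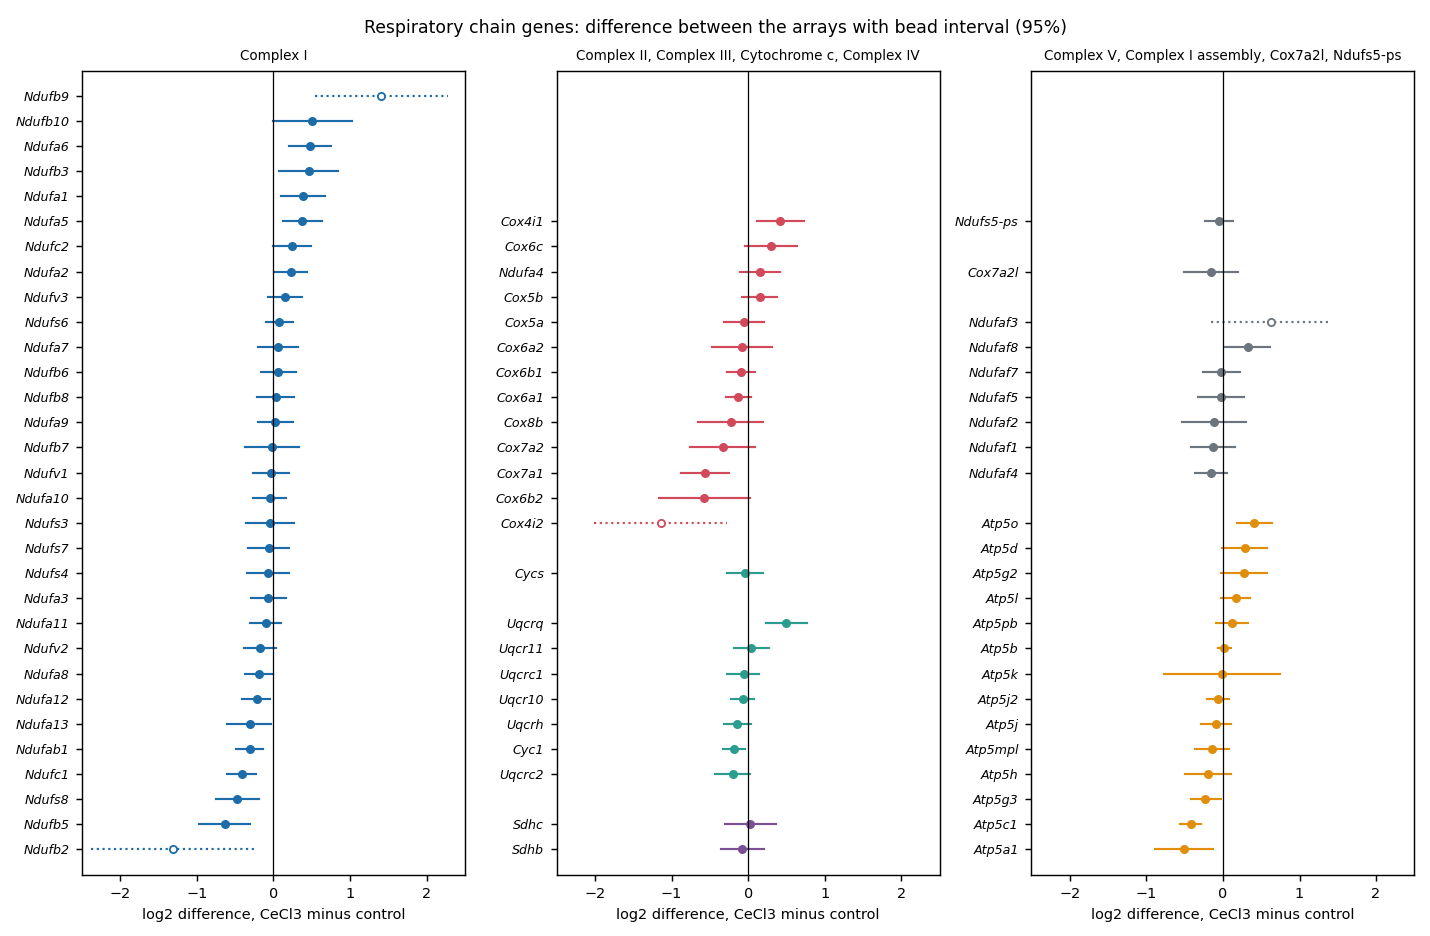
Log2 difference between the CeCl3 and the control array (horizontal axis) for the 77 detected genes, by complex and on the brightest detected probe, with the 95% bead interval as a line. Filled points were detected on both arrays; open points with dotted lines were detected on 1 array alone, where the measured value is not a bound. Points of complex I spread to both sides of 0.

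**Figure D2:**
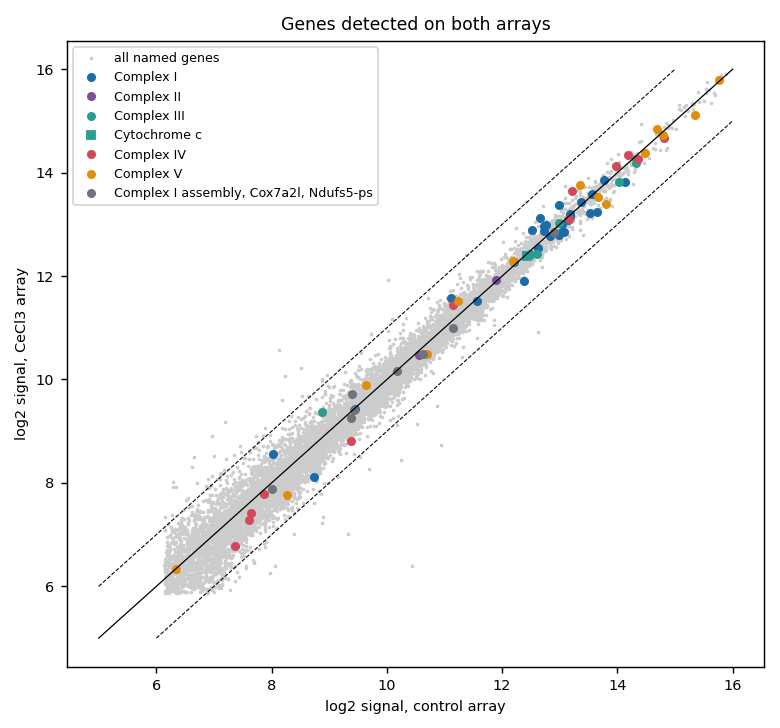
Log2 signal on the control array (horizontal) against the CeCl3 array (vertical) for genes detected on both arrays, with all named genes in grey. The solid line marks equal signal and the dashed lines a 2-fold difference. All 73 respiratory chain genes lie between the dashed lines.

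Ribosomal protein genes, which also encode large complexes, were set beside those of the respiratory chain. The 56 detected cytosolic ribosomal protein genes had a median of 0.02 with 24 below 0. Of the 56, 11 had a bead interval off 0 (19.6%, background 22.4%). The 72 detected mitochondrial ribosomal protein genes had a median of -0.08 with 48 below 0. Of the 71 on both arrays, 15 had a bead interval below 0 (21.1%, background 13.9%) and 0 above it (background 8.53%). The respiratory chain had members on both sides. The mitochondrial ribosomal protein genes were dimmer, with a median log2 signal of 10.5 against 12.7 in the respiratory chain. The 7 of them with a log2 signal of at least 12 had a median difference of 0.07, with 3 below 0. These shares were not tested against each other.

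**Figure D3:**
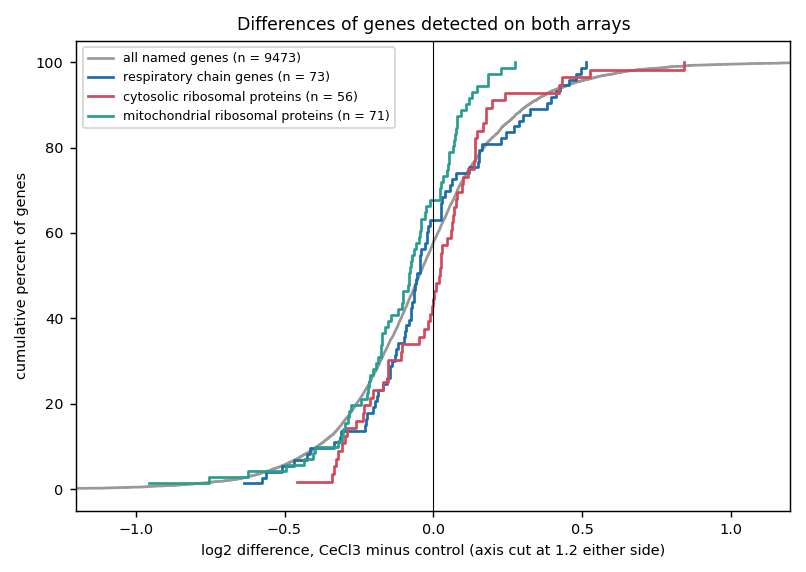
Cumulative percent of genes (vertical) by log2 difference between the CeCl3 and the control array (horizontal, drawn from -1.2 to 1.2), for genes detected on both arrays. The medians were -0.05 for the 73 respiratory chain genes, 0.02 for the 56 cytosolic and -0.08 for the 71 mitochondrial ribosomal protein genes, and -0.05 for the 9473 named genes.

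A minority of the respiratory chain genes hold a promoter motif of nuclear respiratory factor 1, NRF1, a transcription factor known for driving nuclear genes of oxidative phosphorylation. RefSeq promoter windows of the mouse assembly GRCm38.p6, from 250 bases before to 50 bases after a gene's start, were found for 73 of the 89 genes. The letters searched were GCGCA, any base, then GCGC. Both strands were read, and a place that matched on both was counted once. The motif was in a window of 18 of the 73 genes (24.7%). The share was 5.19% of all 27025 genes with a window, 9.26% of 54 cytosolic and 19.4% of 67 mitochondrial ribosomal protein genes. By complex, 6 of 31 genes of complex I held it, 2 of 3 of complex II, 1 of 5 of complex III, 1 of 11 of complex IV and 6 of 14 of complex V. The letters CCGGAAGT of the ETS family, which includes GABPA, were in windows of 4 of the 73 genes (5.48%; Atp5h, Ndufs3, Uqcr11 and Uqcrh), against 4.31% of all genes. The sites of 7 genes are printed: 6 detected genes on either side of 0 below, and Sdhd, not detected, as an example from complex II. Each is written 5′ to 3′ on the gene's strand with the motif in capitals.
Atp5c1, chr2:10080433-10080474, minus strand: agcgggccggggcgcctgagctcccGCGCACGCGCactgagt
Atp5o, chr16:91931602-91931631, minus strand: gctggcgcgcGCGCGTGCGCtctggcgcca
Ndufa6, chr15:82354249-82354278, minus strand: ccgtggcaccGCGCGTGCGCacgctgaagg
Atp5g3, chr2:73911295-73911324, minus strand: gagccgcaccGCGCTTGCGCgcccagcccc
Atp5g2, chr15:102671055-102671114, minus strand: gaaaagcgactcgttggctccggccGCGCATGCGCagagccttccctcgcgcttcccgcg
Ndufa8, chr2:36049339-36049393, minus strand: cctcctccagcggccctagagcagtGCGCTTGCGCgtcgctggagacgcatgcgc
Sdhd, chr9:50603894-50603953, minus strand: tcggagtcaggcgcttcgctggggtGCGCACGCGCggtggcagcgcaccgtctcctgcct
Medians with and without the motif lay close together. The 15 detected genes with it had a median log2 difference of -0.06 (10 below 0, from -0.42 to 0.48), and the 49 detected genes with a window but without it a median of -0.05 (31 below 0). Atp5c1 was among the lower and Atp5o and Ndufa6 among the higher members. NRF1 itself, measured as a transcript, is given with the regulators below.

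Complex I, NADH dehydrogenase, is the largest complex and the entry point for electrons from NADH. Of its 34 genes 31 were detected, 29 of them on both arrays, with a median log2 difference of -0.03 and 17 below 0. The bead interval left out 0 in 12 of the 29 (41.4%, background 22.4%). It lay below 0 in 7 (24.1%, background 13.9%) and above 0 in 5 (17.2%, background 8.53%). The median half-width of the interval was 0.24 in complex I and 0.31 in all named genes. These shares were not tested.

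The core subunits, conserved from bacteria, include those that carry the flavin and the iron-sulphur clusters. Ndufs8, which binds a pair of those clusters, had an intensity of 3844 (CeCl3) and 5333 (control), a log2 difference of -0.47 (bead interval -0.75 to -0.19). Ndufv2, an iron-sulphur subunit of the NADH-binding end, had 7410 and 8333 (-0.17, -0.38 to 0.04). Ndufs8 was thus lower beyond its bead error and Ndufv2 was not. The other 3 detected core genes, Ndufs7, Ndufs3 and Ndufv1, which carries the flavin, lay at -0.06, -0.04 and -0.03 with bead intervals that held 0. All 5 detected core genes were on the lower side in this normalization, 4 of them by less than their bead error. In the authors' series matrix without further normalization, Ndufs3 lay at 0.10 and Ndufv1 at 0.03. Both lay below the median of all named genes in that matrix, 0.18. The core gene Ndufs1 was not detected on its 1 probe.

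Accessory subunits surround the core and serve in assembly and stability. Among them Ndufb5, of the membrane arm, had intensities of 263 (CeCl3) and 416 (control), a log2 difference of -0.63 (-0.97 to -0.30), the lowest of the 73 genes. Ndufc1 had 9574 and 12848 on its brighter probe (-0.41, -0.60 to -0.23), and its second probe, at -0.07, had an interval that held 0. The acyl carrier protein Ndufab1, which also serves mitochondrial fatty acid synthesis, had 9441 and 11621 (-0.31, -0.49 to -0.13). All 3 detected Ndufab1 probes were designed on cDNA clones, and the others lay at 0.11 and 0.31, so this gene has no settled direction. Ndufa13, also known as GRIM-19, had 14379 and 17658 (-0.31, -0.60 to -0.03). Ndufa12 lay at -0.22 (-0.41 to -0.04) and Ndufa8 at -0.19 with an interval that ended just short of 0.

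On the higher side stood Ndufa6, an accessory subunit of the LYR family that binds the acyl carrier protein, with 8972 (CeCl3) and 6406 (control) (0.48, 0.21 to 0.75). Ndufb3 had 3032 and 2212 (0.46, 0.08 to 0.84). Ndufa1, a small subunit encoded on the X chromosome, had 7670 and 5806 (0.39, 0.10 to 0.68). These 3 genes were higher beyond their bead error, each on a single detected probe. For X-linked Ndufa1 the Xist values above stand beside this difference, and their part in it was not tested. The other X-linked members, Ndufb11 and Cox7b, were not detected. Ndufa5 had 10545 and 8094 (0.38, 0.12 to 0.64), and its dim second probe, not detected in the control, lay at 0.71 with an interval that held 0. Ndufa2 had 8097 and 6936 (0.23, 0.01 to 0.44). Ndufb10, the highest of the 73 genes, had 361 and 250 (0.51, -0.01 to 1.03), a difference within its bead error.

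A pair of accessory genes was detected on 1 array alone, on dim probes. Their bounds, like the others below, come from point values and carry no bead error. Ndufb9, of the membrane arm, had intensities of 99 (CeCl3) and 28 (control, not detected). Its bound was 1.59-fold higher, with a log2 bead interval of 0.54 to 2.28. Ndufb2 had 11 (CeCl3, not detected) and 64 (control). Its bound was 1.31-fold lower, with a log2 bead interval of -2.38 to -0.25. The other Ndufb2 probe, not detected, lay at 0.30 (-0.52 to 1.12). Neither gene reached a bound of 2-fold, which 3.25% of the 923 named genes detected on 1 array alone did. Ndufb4 was not detected on either array.

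The remaining 12 accessory genes on both arrays had bead intervals that held 0. They included Ndufs4, at -0.07 on the brightest of 4 detected probes, whose loss in mice gives a model of Leigh syndrome, and Ndufs6, at 0.08 on its brightest probe. Ndufs6 is a case of disagreement between probes, since its dimmer probe read 579 (CeCl3) and 354 (control), a difference of 0.69 (0.34 to 1.03). Ndufc2, at 0.24, and Ndufv3, at 0.15, were the next highest.

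Of the assembly factors of complex I, 7 of 8 were detected, with a median of -0.02. Ndufaf8 had intensities of 827 (CeCl3) and 657 (control), a difference of 0.33 (0.03 to 0.62). Ndufaf3, not detected in the control, had 88 and 53 and was at least 1.44-fold higher, with a bead interval of -0.15 to 1.40 that held 0. Ndufaf1, Ndufaf2, Ndufaf4, Ndufaf5 and Ndufaf7 lay between -0.15 and -0.02 with intervals that held 0, and Ndufaf6 was not detected. A second Ndufaf4 probe, designed on a cDNA clone, lay at 0.25 (0.03 to 0.48), opposite in sign to the -0.15 of the RefSeq probe. The probe of Ndufs5-ps, a transcribed pseudogene, had intensities of 7395 (CeCl3) and 7591 (control), a difference of -0.05. Ndufs5 itself has no probe named here, and whether the Ndufs5-ps probe also reads Ndufs5 RNA was not tested.

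Complex II, succinate dehydrogenase, also belongs to the tricarboxylic acid cycle and pumps no protons. Sdhb, the iron-sulphur subunit, had intensities of 1418 (CeCl3) and 1494 (control) (-0.08, -0.36 to 0.21), and 0.01 on its second probe. Sdhc, a membrane anchor, had 3874 and 3784 (0.03, -0.30 to 0.36). The arrays thus gave near-equal signals for both measurable subunits. The flavoprotein gene Sdha and the anchor gene Sdhd were not detected on their single probes.

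In complex III, the cytochrome bc1 complex, 7 of 8 genes were detected, with a median of -0.07 and 5 below 0. Cyc1, the cytochrome c1 subunit that hands electrons to cytochrome c, had intensities of 5499 (CeCl3) and 6212 (control), a difference of -0.19 (-0.33 to -0.04). Uqcrq, a small subunit near the ubiquinone sites, had 650 and 456 (0.50, 0.23 to 0.77) on a cDNA-clone probe, while its RefSeq probe was not detected. These 2 genes were the only ones of the 7 whose bead interval left out 0 (28.6%, background 22.4%). The large matrix-facing subunits Uqcrc1 and Uqcrc2 lay at -0.06 and -0.20, the hinge protein gene Uqcrh at -0.14, and Uqcr10 and Uqcr11 at -0.07 and 0.04. Uqcr10 was measured by another probe too, at 0.17, and its brightest probe lay at 0.01 without quantile normalization. The signs of Cox6b1, Atp5j and Atp5k below, all near 0, turned in the same setting. The Rieske iron-sulphur gene Uqcrfs1 was not detected on either of its probes. Cytochrome c itself, Cycs, which carries electrons between complexes III and IV and triggers apoptosis when released, had 5313 and 5468 (-0.04, -0.28 to 0.19).

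Complex IV, cytochrome c oxidase, holds nuclear subunits with paired isoforms that differ between tissues. Of its 16 genes 13 were detected, 12 on both arrays, with a median of -0.09. The bead interval left out 0 in 2 of the 12 (16.7%, background 22.4%). Ndufa4 is counted here because its product is known as a subunit of complex IV. The isoforms used in most tissues had a median of 0.05 (8 of 9 detected, 4 below 0). Among them Cox4i1, the regulatory subunit that binds ATP, had intensities of 12739 (CeCl3) and 9508 (control), a difference of 0.42 (0.12 to 0.73). Cox6c lay at 0.30 (-0.04 to 0.64), Cox5b and Ndufa4 at 0.15 each, Cox5a at -0.05, Cox6b1 at -0.09, and Cox7a2 at -0.33 (-0.76 to 0.09). Of these, Cox4i1 alone had a bead interval off 0. The probes of Cox6a1 went opposite ways, with -0.13 (-0.29 to 0.04) on the brighter and 0.28 (0.02 to 0.54) on the other.

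The 5 detected tissue isoforms lay below 0, 1 of them detected in the control alone. In the authors' series matrix without further normalization, where all named genes had a median of 0.18, Cox6a2 turned to 0.26 and Cox8b to 0.09. Cox7a1, the form of heart and skeletal muscle, had intensities of 436 (CeCl3) and 650 (control), a difference of -0.56 (-0.87 to -0.25). Cox4i2, known from lung and from the response to low oxygen, had 21 (CeCl3, not detected) and 68 (control). Its bound was 1.37-fold lower, with a log2 bead interval of -2.01 to -0.28. Cox6b2, a testis form, had 97 and 151 (-0.58, -1.17 to 0.02). Cox8b had 159 and 189 (-0.23), and Cox6a2 had 209 and 222 (-0.08), both with intervals that held 0; both are forms of heart and skeletal muscle. Thus 1 of the 4 on both arrays was lower beyond its bead error. The median of these 4 was -0.40; Cox4i2, which passed detection through the control alone, could only add a lower value. All 5 had an intensity under 700, and dim probes had wider bead intervals. Of 14 muscle markers with a probe, 5 were detected. Acta1 (-0.05), Myl1 (-0.08) and Pvalb (0.05) were on both arrays, Actn3 on the control array only (at least 1.27-fold lower) and Mylpf with CeCl3 only, while Ckm, Mb and Myh7 were not detected. Their summed intensities were 23235 (CeCl3) and 21177 (control), most of it from Pvalb, which interneurons also express. The part of muscle RNA in the isoform values was not tested. The testis forms Cox7b2 and Cox8c were not detected. Cox7a2l, which joins complexes III and IV into supercomplexes, lay at -0.16 (-0.51 to 0.20).

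Complex V, the ATP synthase, consists of the catalytic F1 head, a rotating ring of c subunits and a peripheral stalk that holds the head still. Of its 16 genes 14 were detected, all on both arrays, with a median of -0.04 and 8 below 0. The bead interval lay below 0 in 3 (21.4%, background 13.9%) and above 0 in 1 (7.14%, background 8.53%).

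In the F1 head, Atp5c1, the gamma subunit that forms the central rotor, had intensities of 10682 (CeCl3) and 14402 (control), a difference of -0.42 (-0.56 to -0.28). Atp5a1, the alpha subunit, had 204 and 296 (-0.51, -0.89 to -0.13) on its RefSeq probe. A second Atp5a1 probe, designed on a cDNA clone, read 167 and 113 (0.52, -0.03 to 1.07), so its probes pointed opposite ways. The catalytic beta subunit, Atp5b, had 58842 and 54388 (0.02, -0.06 to 0.11), near the top of the scale, where the largest intensities were 64487 and 58558. Atp5d, the delta subunit, lay at 0.29 (-0.01 to 0.58), and Atp5e was not detected. Without quantile normalization Atp5b lay at 0.11 (0.03 to 0.20), with an interval off 0. Within the head, the gamma gene thus lay below 0 beyond its bead error, and the call for the beta gene depended on the normalization.

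In the peripheral stalk, Atp5o, the oligomycin sensitivity-conferring protein that links stalk and head, had intensities of 13707 (CeCl3) and 10424 (control), a difference of 0.41 (0.19 to 0.64), with 0.09 on its second probe. The other stalk genes Atp5pb (0.12), Atp5j (-0.09) and Atp5h (-0.20) had intervals that held 0. Atp5o, on its brightest probe, and Atp5c1, on its only probe, thus lay about equally far from 0 on opposite sides. Duplicate genes encode the c ring, and their mature products are known to be identical. Atp5g3 had 37654 and 38947 (-0.23, -0.42 to -0.03), and Atp5g2 had 942 and 779 (0.27, -0.03 to 0.58). The Atp5g3 difference depended on normalization at the top of the scale and was -0.05 without quantile normalization. The membrane subunits Atp5l (0.17), Atp5j2 (-0.06) and Atp5mpl (-0.14) had intervals that held 0, and Atp5md was not detected. Another membrane subunit, Atp5k, lay at -0.01 with a wide interval (-0.77 to 0.74). It was read by a dim cDNA-clone probe with intensities of 68 (CeCl3) and 69 (control), while its RefSeq probe was not detected.

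Genes with several probes allowed a check within the arrays. In 23 members with at least 2 detected probes, the 2 brightest differed in the same direction in 11 (47.8%, Wilson 95% interval 29.2 to 67.0), against 55.3% of 3652 named genes with such a pair. The median gap between the probes was 0.22, against 0.27 in all genes. Of 6 members whose brightest probe lay beyond its own bead half-width, 4 had a second probe of the same sign (Atp5o, Ndufa5, Ndufa8 and Ndufc1) and 2 had not (Atp5a1 and Ndufab1), against 491 of 848 such pairs of the same sign among all named genes. Both probes left out 0 in 0 of the 23 members, against 182 genes in the same and 81 in opposite directions among all 3652. The other 15 genes with an interval off 0, such as Ndufs8, Ndufa6, Cox4i1, Cox7a1 and Atp5c1, have 1 detected probe each.

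**Figure D4:**
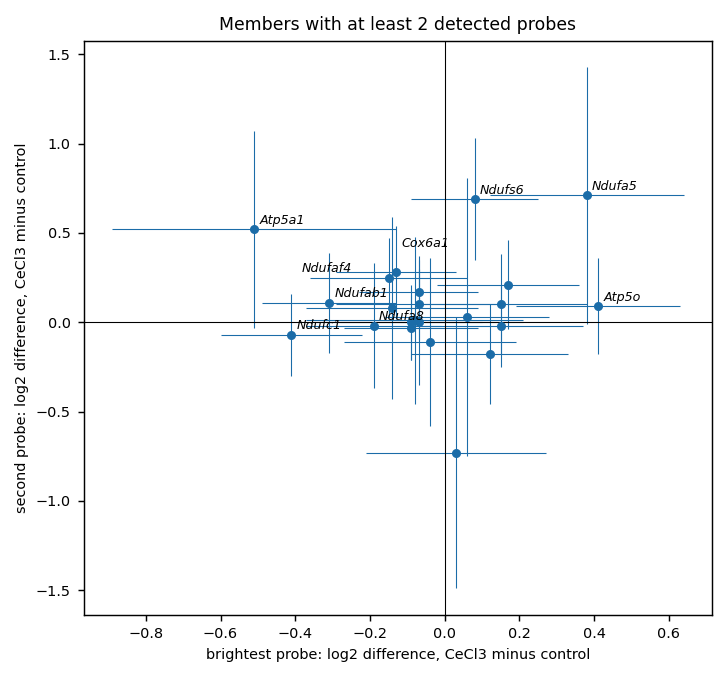
Log2 difference between the CeCl3 and the control array on the brightest probe (horizontal) and the second brightest (vertical) for the 23 respiratory chain genes with at least 2 detected probes, with 95% bead intervals. Genes with an interval off 0 on either probe are named; 11 of the 23 lie in the quadrants of equal sign.

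Genes that build and serve the chain were taken from lists. Their counts of bead intervals off 0 are read against the backgrounds of 22.4% off 0, 13.9% below and 8.53% above. Of 42 further assembly factors 35 were detected, with a median log2 difference of -0.06; the bead interval lay below 0 in 6 and above 0 in 3 of the 33 on both arrays (27.3% off 0). Tmem70, which serves assembly of complex V, lay at -0.54 (-0.94 to -0.14). Cox17, the copper chaperone of complex IV, lay at -0.46 (-0.74 to -0.18) and Sdhaf1, of complex II, at 0.52 (0.07 to 0.97). Fastkd2, an RNA-binding protein of mitochondria, was not detected with CeCl3. Its bound was 1.76-fold lower, with a log2 bead interval of -2.09 to -0.58.

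Of 23 regulators of mitochondrial biogenesis 19 were detected, with a median of 0.03, 2 bead intervals below 0 and 3 above (26.3% off 0). Ppargc1a, the coactivator PGC-1alpha that drives biogenesis, lay at -0.39 (-0.66 to -0.12). The single-stranded DNA-binding protein Ssbp1, of mitochondrial DNA replication, lay at 0.87 (0.11 to 1.63) and Mterf1a, of mitochondrial transcription, at 0.32 (0.01 to 0.63). Nrf1, whose motif is printed above, lay at 0.03 (-0.20 to 0.25). The carriers and channels (12 of 18 detected, median 0.12, 16.7% off 0) had 0 bead intervals below 0 and 2 above, the aspartate-glutamate carrier Slc25a12 at 0.45 (0.17 to 0.72) and Slc25a27, a brain uncoupling protein, at 0.63 (0.02 to 1.23); Vdac3, an outer membrane channel, lay at 0.38 (-0.03 to 0.79). Genes of ubiquinone synthesis and electron entry (15 of 18, median -0.07, 13.3% off 0) had 2 below 0, Coq4 at -0.48 (-0.92 to -0.05) and Coq9 at -0.26 (-0.46 to -0.07), and 0 above. Gpd2, the glycerol-3-phosphate dehydrogenase that feeds ubiquinone, lay at -0.27 (-0.62 to 0.08).

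**Figure D5:**
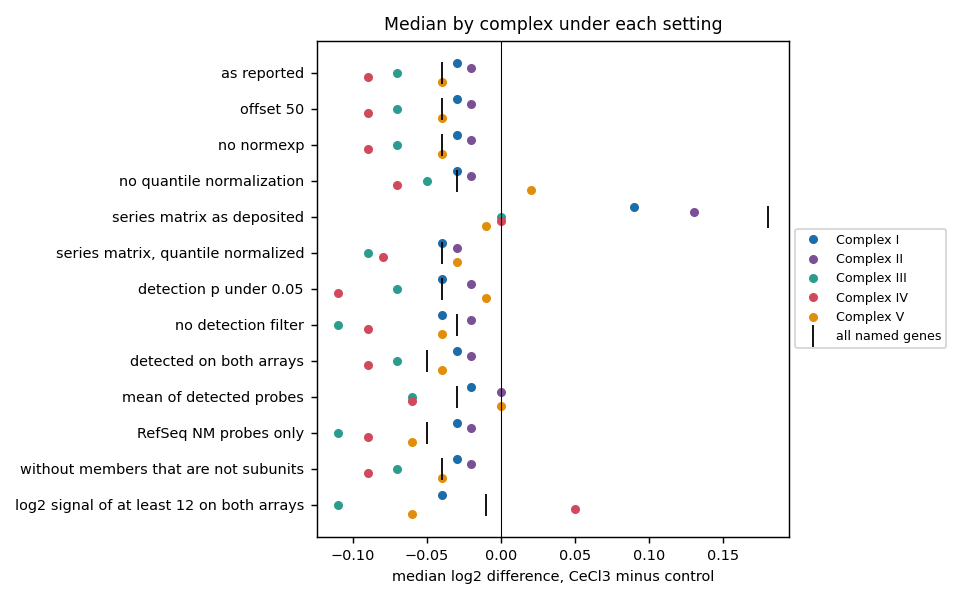
Median log2 difference between the CeCl3 and the control array (horizontal) of each complex under each processing setting (vertical), with the median of all named genes as a black bar. With the series matrix as deposited the median of all named genes moved to 0.18, and complex I moved to 0.09.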

How the data were processed

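The label CeCl3 and the label control each put 1 bead array in a group. The submitters' processing notes name BeadStudio without a version. The deposited intensity, per the file headers the mean signal of a probe's beads, lies below 0 for 27.1% of probes on each array, so background had been subtracted. Its 50th to 99th percentiles differ between the arrays by at most 0.509%, although the table is called not normalized. Per the file headers, the deposited table also holds the standard error over beads, the number of beads and an unadjusted detection p-value. The deposited intensity values of the series matrix, used as an alternative, have medians of 15.9 (CeCl3) and 14.2 (control); they rank the probes as the other table does (Spearman 1 on each array), and how they were scaled is unknown.

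Intensities were corrected with normexp (limma 3.58.1 in R 4.3.3, offset 16), which inferred negative controls from the detection p-values. Quantile normalization and log2 followed. Other steps used Python 3.11.15 and scipy 1.17.1. The steps were tested on simulated data. Detection required a p-value below 0.01. Each gene took the values of its brightest detected probe by mean log2 signal. Bead standard errors were carried to the log2 scale and multiplied by 1.96. Genes seen on only 1 array got a bound against the dimmest detected probe of the array that missed them (log2 5.87 for CeCl3, 6.14 for control). The bound is a ratio of point values and carries no bead error.

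Names came from the platform annotation (34885 probes with 1 symbol, 18 with several, 10378 unnamed here); 34807 matched a RefSeq gene table of GRCm38.p6, which changed 0 symbols. Members described singly were the 4 highest and 4 lowest of each complex, those with a bead interval off 0, those detected on 1 array alone, and the tissue or duplicate isoforms. Nrf1, and other members such as Ndufs4, Ndufs6 and Ndufaf4, were named after their values were seen. In other lists, these were up to 3 genes with the largest differences, and those on 1 array alone with a bound of at least 1.5-fold. Members and lists were chosen with earlier results of these data known. With 1 array per group no test was run. The 11 other settings changed the offset, background correction, normalization, value table, detection filter, probe choice and membership. An alternative with bright probes alone was added after seeing the data.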

Additional observations from a re-analysis of the deposited data

How the results depend on the processing

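No median of the chain or of a complex was tested, since each group has 1 array. No paired analysis was possible because each group holds 1 sample. The members' median of -0.05 lay between -0.06 and -0.03 under every setting except the series matrix as deposited, where it was 0.07, with 40.3% of members lower, a bead interval below 0 in 7 and above 0 in 16, and medians of 0.09 for complex I and 0.13 for complex II. All named genes had a median of 0.18 in that table. Their share of bead intervals off 0 there is not given, so the counts of 7 and 16 have no background. The median of complex V, -0.04, was 0.02 without quantile normalization. In that setting Atp5j turned from -0.09 to 0.02 and Atp5k from -0.01 to 0.03, and the median passed 0 with them. Why these values moved was not tested. The median of complex IV, -0.09, was 0.05 over bright probes alone. The 6 complex IV genes with a mean log2 signal of at least 12 are all isoforms used in most tissues. This median is thus over another set of genes, without the tissue isoforms. With the mean of all detected probes in place of the brightest, Atp5a1 turned to 0.01 and Ndufab1 to 0.04. The count of members at 2-fold or more was 0 under every setting run. Of the 21 genes with a bead interval off 0, 19 kept their sign and 15 kept an interval off 0 under every setting that gave them a value. These counts overstate stability. Genes with 1 detected probe keep their value under the mean of detected probes by construction. The genes that lost their sign, Atp5a1 and Ndufab1, have several detected probes. The series matrix ranks the probes as the other table does, so its quantile-normalized values were bound to lie close. Signals near the background limit dim members such as Ndufb9, Ndufb2 and Cox4i2, and Atp5b lies near the top of the scale.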
